A study of Rattus norvegicus with 20 samples.

Results

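Cultured epithelial cells of the rat trachea were compared with cultured epithelial cells of the rat esophagus before either had been grafted. The comparison rests on 4 of the 20 arrays of the series, 2 for trachea and 2 for esophagus, and covers every gene that could be named by a single symbol, with 1 probe set per gene, which gave 14506 genes out of 29215 probe sets. The cells came from Sprague-Dawley rats aged 200 postnatal days (PN200) that the labels call green rat CZ-004 and whose genotype they give as SDTgN (act-EGFP)obsCZ-004, so that the cells make enhanced green fluorescent protein (EGFP). In both groups, minced tissue was dissociated with trypsin, the cells grew on a feeder of irradiated 3T3-J2 mouse fibroblasts, and EGFP-positive cells were sorted before RNA was extracted. Sorting on EGFP leaves mouse feeder cells behind but keeps rat cells of any type, since the transgene is in all cells of the rat. The groups called trachea after and esophagus after, with 2 arrays each, are, by the study's methods, the same cells, which had been transplanted into newborn mouse skin, recovered from the graft and cultured a second time. The labels do not say whether the duplicates of a group came from separate animals, and the study describes them as duplicate cultures, so the p-values measure only the spread between duplicates. The sample titles of both groups before transplantation carry the same Roman numeral V, which the labels do not explain, whereas the titles of the recovered cells carry III for esophagus and I for trachea. The study's methods write culture passages in Roman numerals, but whether those in the titles are passages is not stated.

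Trachea and esophagus both form from the foregut endoderm of the embryo. The dorsal foregut tube, where the transcription factor Sox2 stays high, becomes the esophagus, whose adult lining is a stratified squamous epithelium rich in the keratins Krt4 and Krt13. The ventral tube, marked by Nkx2-1, becomes the trachea, whose lining is a pseudostratified epithelium of Tp63-positive basal cells, secretory cells and multiciliated cells, with simple-epithelial keratins such as Krt8, Krt18 and Krt19 in the luminal cells. In culture on a feeder layer, it is the basal cells of either tissue that are known to grow, and squamous genes can rise in tracheal cells.

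Values are log2 expression values after robust multi-array averaging (RMA), where 1 unit equals a factor of 2, and every difference is given as trachea minus esophagus ± SE of the limma fit. Calls of higher or lower required an adjusted p under 0.05 together with a fold above 2. Duplicates correlated with r = 0.996 in trachea and 0.994 in esophagus across probe sets, and the SD of the difference between duplicates was 0.211 and 0.263. The file holds no detection calls, so it is not known which low values lie above background.

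The tissue labels were checked on 3 marker genes and on markers of the basal layer. Krt19 read 10.94 and 10.86 in trachea and 6.03 and 5.93 in esophagus. Krt4 read 8.43 and 8.20 in trachea and 10.85 and 10.81 in esophagus. Both genes therefore separated the arrays in the direction of their labels, Krt19 by 4.92 ± 0.17 and Krt4 by -2.52 ± 0.18. Nkx2-1, the transcription factor of the lung and tracheal lineage, read 6.64 and 6.77 in trachea and 5.78 and 6.28 in esophagus. Its difference of 0.68 ± 0.18 (1.60-fold, adjusted p = 0.034) stayed under the fold threshold, so the lineage factor itself was not called. Nkx2-1 averaged 5.56 to 6.29 in the vagina, oral mucosa and footpad cells before transplantation. The basal keratin Krt14 was at 13.05 in trachea and 13.14 in esophagus, and Tp63 was at 9.03 and 9.84, a difference of -0.80 ± 0.08 that was under the fold threshold. Foxj1, the master regulator of motile cilia, differed by -0.12 ± 0.14, and Scgb1a1, the club cell secretoglobin, by 0.39 ± 0.14, and neither was called. By limma's test, 0 of 22 measured genes of multiciliated cells were called, with 3 at an unadjusted p under 0.05. The share of all genes under that unadjusted p was not counted.

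Before transplantation, 274 genes were higher in trachea (1.89% of the 14506 genes) and 136 were lower (0.938%), so that 66.8% of the 410 called genes were higher in trachea. The median difference over all genes was -0.02. Differences above 2 on the log2 scale were reached by 64 of the genes higher in trachea, and differences below -2 by 35 of the genes higher in esophagus. In all 410 called genes, both arrays of one tissue lay above both arrays of the other. A call at a fold above 2 largely implies this, so it is a description and adds no support. Without the fold threshold, 1042 genes were higher and 655 lower at an adjusted p under 0.05. The lower tissue averaged under 4.77, the level below which 40% of all probe sets lie, for 61 of the genes higher in trachea and for 18 of those lower, and how far such values lie above background is not known. Among the 10 pairs of tissues before transplantation, the number of called genes ran from 206 between vagina and trachea to 1140 between oral mucosa and footpad.

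**Figure D1:**
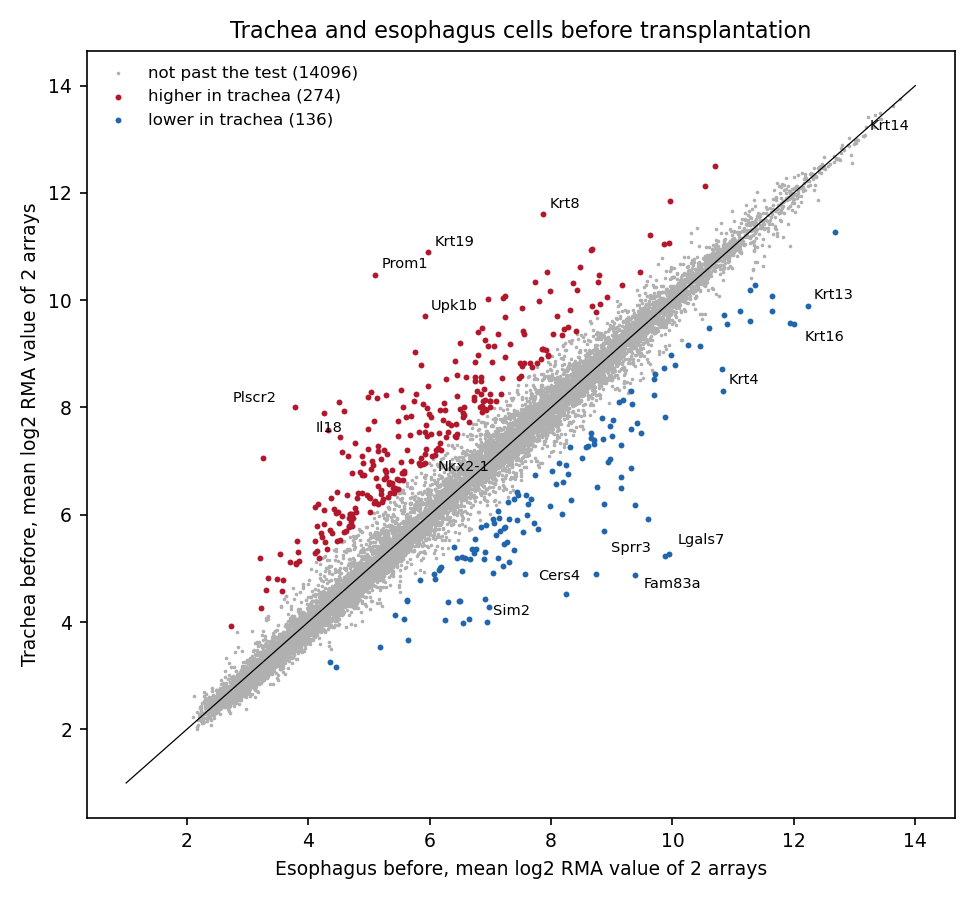
Mean log2 RMA value of each of the 14506 genes in esophagus before (horizontal) and trachea before (vertical), 2 arrays each, with genes past the test in red (274, higher in trachea) and blue (136, lower in trachea). Most genes lie on the line of equality, Krt14 among them at about 13, whereas Prom1, Krt19 and Krt8 stand far above it and Lgals7, Sprr3 and Fam83a far below.

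The gene with the largest difference in favor of trachea was Prom1 (probe set 10773115), which encodes the membrane protein prominin-1 (CD133) found on protrusions of epithelial and progenitor cells. It read 10.52 and 10.43 in the trachea arrays and 5.15 and 5.06 in the esophagus arrays, a 41.3-fold difference (5.37 ± 0.13, adjusted p = 3.3e-11). Prom1 also averaged 10.12 in vagina cells, and 5.35 and 4.01 in oral mucosa and footpad cells. It was followed by Krt19 (30.3-fold, adjusted p = 3e-10). Plscr2, a phospholipid scramblase gene, read 8.12 and 7.91 in trachea and 3.77 and 3.80 in esophagus (18.7-fold). Rassf9 read 7.10 and 7.0 against 3.54 and 2.96 (13.9-fold). Upk1b, a uroplakin of the urothelial surface, read 9.87 and 9.53 against 5.97 and 5.87 (13.7-fold), and Upk3bl1, a uroplakin-like gene, was 9.48-fold higher. In each of these genes the duplicates of a tissue lay within 0.6 of each other, far less than the distance between the tissues.

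The remaining genes among the 15 largest differences in favor of trachea fell into several kinds. Il18, a cytokine that epithelial cells store, read 7.91 and 7.87 in trachea and 4.31 and 4.20 in esophagus (12.5-fold). Il1rl1, the receptor for interleukin 33, was 8.27-fold higher, the stromelysin Mmp3 9.18-fold and the serine protease Prss22 8.32-fold. The tetraspanin Tspan1 was 9.56-fold higher and the junction molecule Jam3 10.2-fold. Mgp, which encodes a matrix protein that inhibits calcification, read 8.07 and 8.12 against 4.39 and 4.62 (12.1-fold). Mxra8, a matrix remodeling associated membrane protein, read 9.09 and 8.99 against 5.52 and 6.0 (9.72-fold). Mgp and Mxra8 are also known from mesenchymal cells, and the markers of such cells are given further on.

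In favor of esophagus, the largest difference was that of Lgals7 (probe set 10705654), the gene of galectin-7, a lectin of stratified epithelia. It read 9.92 and 9.97 in esophagus and 5.90 and 4.63 in trachea (25.6-fold, difference -4.68 ± 0.26, adjusted p = 2.4e-08). The trachea duplicates of Lgals7 lay the farthest apart among the genes named here and were still at least 4 below esophagus. Sprr3, a small proline-rich protein of the mucosal cornified envelope, read 9.82 and 9.93 in esophagus and 5.01 and 5.44 in trachea (25.1-fold). Fam83a read 9.39 in both esophagus arrays and 4.81 and 4.94 in trachea (22.9-fold). Cers4, a ceramide synthase, read 8.83 and 8.66 against 4.91 and 4.89 (14.4-fold). All 4 genes were taken from called genes whose arrays did not overlap between the tissues, so that their separation follows from the choice.

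The other genes with the largest differences in favor of esophagus held several of keratinocyte differentiation. The secreted keratinocyte protein dermokine (Dmkn) was 13.2-fold lower in trachea, cornifelin (Cnfn) 9.21-fold, the kallikrein-related peptidase Klk10 6.52-fold and the transglutaminase Tgm3, which cross-links envelope proteins, 5.96-fold. Moxd1, a copper monooxygenase-like gene, was 12.8-fold lower, the fructose transporter gene Slc2a5 9.06-fold, the calcium-binding oncomodulin gene Ocm 6.31-fold, the transcriptional corepressor Tle4 6.39-fold and the gap junction gene Gjb2 (connexin 26) 6.27-fold. Sim2, a transcription factor gene, read 6.97 and 6.92 in esophagus and 4.0 and 4.02 in trachea, and Hoxc4 read 6.86 and 6.44 against 4.02 and 4.10. These genes, too, were taken from called genes whose arrays did not overlap between the tissues.

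**Figure D2:**
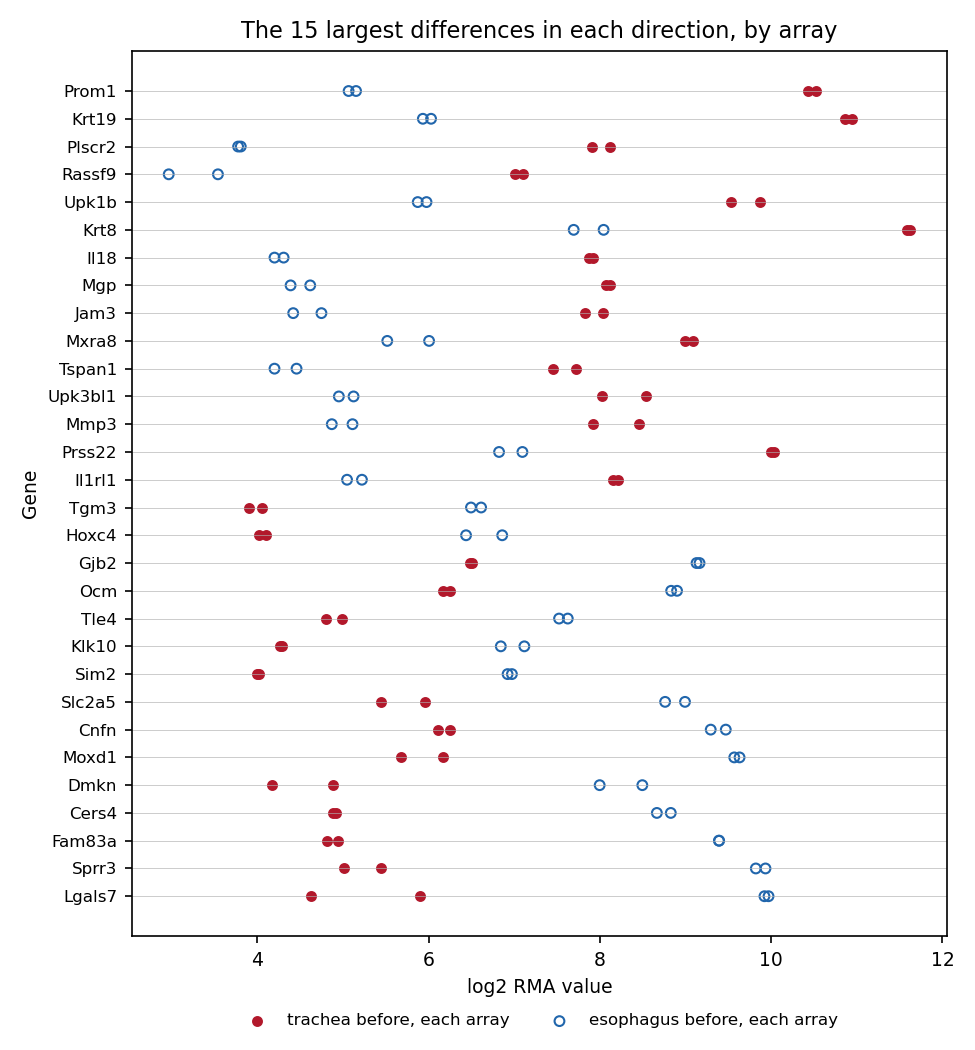
log2 RMA value of each of the 4 arrays (horizontal) for the 15 genes with the largest difference in each direction (vertical, ordered by the difference), with trachea as filled red and esophagus as open blue circles. Duplicates lie close together in nearly every gene, and the widest gap is that of the trachea arrays in Lgals7 (5.90 and 4.63).

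Keratins build the intermediate filaments of epithelial cells, type II keratins pairing with type I keratins, and each layer and tissue uses its own pairs. Of 43 keratin genes measured, 4 were higher in trachea, 3 were lower and 36 were not called, with a median difference of -0.09. The keratins higher in trachea were the simple-epithelial Krt8, Krt18, Krt19 and Krt7. Krt8 read 11.59 and 11.62 in trachea and 7.69 and 8.04 in esophagus (13.3-fold). Its second probe set differed by 4.45 ± 0.17 in the same direction. Krt18, the partner of Krt8, read 8.93 and 8.65 in trachea and 5.86 and 5.87 in esophagus (7.60-fold), and its other probe sets differed by 1.36 ± 0.31, which was called, and 0.40 ± 0.14, which was not, so that the size for Krt18 depended on the probe set. Krt7, named here after its value was seen, read 10.78 and 10.46 against 8.42 and 8.54. In vagina cells Krt8 averaged 10.61, Krt7 10.42, Krt19 8.38 and Krt18 6.88, so Krt7 was near its trachea mean of 10.62. The same 4 genes averaged 9.17, 8.74, 6.83 and 8.14 in oral mucosa cells. In footpad cells they averaged 7.05, 8.08, 5.35 and 5.41.

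The keratins higher in esophagus were Krt4 and Krt13, the pair of non-keratinized mucosa, and Krt16, a keratin of activated keratinocytes. Krt13 read 12.28 and 12.18 in esophagus and 9.98 and 9.81 in trachea (5.03-fold), and Krt16 read 12.05 and 11.96 against 9.58 and 9.54 (5.45-fold). In oral mucosa cells Krt4 averaged 11.96 and Krt13 13.04, above esophagus for both, whereas in footpad cells Krt4 averaged 5.02 and Krt13 6.40. Krt4 was at 6.23 in vagina cells, below the 8.31 of trachea. The trachea cells thus lay between the other mucosae in Krt4.

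RefSeq windows around the gene start are shown for 4 genes that carry these differences, from 250 bases before to 50 bases after the start. Krt8 and Krt4 were chosen because both lie in the type II keratin cluster on chromosome 7 and differed in opposite directions, and Prom1 and Lgals7 because they had the largest difference in each direction; Krt19 and Sprr3 are named only. Capitals mark matches, on either strand, to the letters TGANTCA (AP-1), TATAA (TATA box), GGGCGG (GC box) or CTCAAG (NKX2-1). The 2 TATAA matches in Krt8 overlap on opposite strands.
Krt8 (GRCr8 chr7:135010290-135010589, minus strand): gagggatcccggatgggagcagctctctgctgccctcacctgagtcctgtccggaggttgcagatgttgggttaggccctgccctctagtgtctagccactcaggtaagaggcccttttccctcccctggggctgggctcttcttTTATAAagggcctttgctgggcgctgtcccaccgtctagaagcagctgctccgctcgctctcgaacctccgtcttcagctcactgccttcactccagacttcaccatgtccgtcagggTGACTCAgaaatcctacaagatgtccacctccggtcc
Prom1 (GRCr8 chr14:71202395-71202694, plus strand): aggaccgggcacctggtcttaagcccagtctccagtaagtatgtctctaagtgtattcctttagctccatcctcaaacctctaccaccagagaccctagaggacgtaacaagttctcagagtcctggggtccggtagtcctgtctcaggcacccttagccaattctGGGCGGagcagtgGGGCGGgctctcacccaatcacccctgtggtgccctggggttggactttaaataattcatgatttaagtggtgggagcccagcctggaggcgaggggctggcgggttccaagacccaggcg
Krt4 (GRCr8 chr7:134930664-134930963, minus strand): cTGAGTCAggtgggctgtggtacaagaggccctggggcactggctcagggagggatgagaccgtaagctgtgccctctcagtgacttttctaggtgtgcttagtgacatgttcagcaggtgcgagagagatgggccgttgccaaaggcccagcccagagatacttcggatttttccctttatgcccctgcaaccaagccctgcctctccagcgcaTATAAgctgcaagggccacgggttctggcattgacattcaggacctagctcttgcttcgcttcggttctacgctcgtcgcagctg
Lgals7 (GRCr8 chr1:93277524-93277823, plus strand): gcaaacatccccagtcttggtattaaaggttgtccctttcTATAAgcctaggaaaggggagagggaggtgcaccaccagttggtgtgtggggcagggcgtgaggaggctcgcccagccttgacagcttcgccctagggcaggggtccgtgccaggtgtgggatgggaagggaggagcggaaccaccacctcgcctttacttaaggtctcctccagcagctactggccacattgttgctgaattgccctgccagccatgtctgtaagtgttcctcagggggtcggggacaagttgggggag
Of the 33469 windows in the table, 7.33% held TGANTCA, 26.2% TATAA, 33.1% GGGCGG and 15.8% CTCAAG. The AP-1 letters stood at bases 14 to 20 after the start of Krt8 and at bases -249 to -243 of Krt4. The TATA letters stood at bases -35 to -31 of Krt4, at -105 to -100 of Krt8 and at -210 to -206 of Lgals7. The start listed for Krt8 is an ATG, so the window of Krt8 may sit on the start codon and not on the start of transcription. Prom1, for which the first of 2 listed starts is shown, held GGGCGG at -84 to -79 and at -71 to -66. CTCAAG was in none of the 4 windows. A match is only a run of letters, and binding was not measured.

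The genes were also grouped into 28 lists by cell type and pathway, beside a short list of sex-linked genes, and their counts are to be read against the 1.89% of all genes that were higher in trachea and the 0.938% that were lower. Counts at an unadjusted p under 0.05 have no such share of all genes beside them and are a description. Over the list of simple epithelium genes, 9 of 27 measured genes were higher in trachea and 1 was lower, with a median difference of 0.30 against -0.02 over all genes. Besides Prom1, Krt19, Krt8, Krt18 and Tspan1, claudin 7 (Cldn7), a tight junction protein, read 7.11 and 7.24 in trachea and 4.47 and 4.64 in esophagus (6.15-fold). Epcam, an adhesion molecule of simple epithelia and named after its value was seen, read 10.30 and 10.26 against 9.26 and 9.08. The 1 gene that was lower, Elf5, an epithelial ETS factor, read 4.37 and 4.40 in trachea and 6.59 and 6.36 in esophagus, and it was also named after its value was seen. The mean of the list was 8.60 and 8.53 in the trachea arrays and 7.55 and 7.48 in the esophagus arrays.

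Over the list of mucosal squamous genes the direction was the opposite, since 8 of 27 were lower in trachea and 1 was higher, with a median difference of -0.46. Besides Sprr3, Cnfn, Tgm3, Krt4, Krt16 and Krt13, the desmosomal cadherin Dsc3 read 10.08 and 10.07 in trachea and 11.71 and 11.57 in esophagus. Ly6d, a surface protein of squamous cells named after its value was seen, was 4.16-fold lower. The 1 gene that was higher, Mal, was also named after its value was seen, and its call was lost without trachea replicate 1 (0.92, adjusted p = 0.064). Of 18 epidermal cornification genes, 3 were lower in trachea, namely Dmkn, Sdr9c7 (2.76-fold) and suprabasin (Sbsn, 2.45-fold), and 0 were higher. The mean of the mucosal squamous list was 7.80 and 7.82 in the trachea arrays, 8.84 and 8.74 in the esophagus arrays, and 9.38 and 9.24 in oral mucosa.

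Of 21 genes of the basal layer, 0 were higher and 1 was lower, Tp73, a relative of Tp63 that read 5.78 and 5.69 in trachea and 7.82 and 7.76 in esophagus. The list averaged 9.92 and 9.89 in the trachea arrays and 10.18 and 10.15 in the esophagus arrays, a smaller gap than in the simple epithelium and mucosal squamous lists. Of 22 airway secretory cell genes, 2 were higher and 1 was lower. Wfdc2, a secreted antiprotease of the airways, read 7.69 and 7.64 in trachea and 5.82 and 6.04 in esophagus, and lipocalin 2 (Lcn2), which binds bacterial siderophores, read 7.41 and 7.04 against 5.03 and 4.95. The antiprotease Slpi went the other way, with 6.21 and 5.83 in trachea and 8.10 and 8.25 in esophagus. Lcn2 also averaged 7.08 in footpad and 6.35 in vagina cells, against 7.23 in trachea, and 5.35 in oral mucosa cells. Wfdc2 averaged 5.85 to 6.12 in these other tissues. The mean of the secretory list overlapped between the tissues, at 4.75 and 4.66 in trachea and 4.68 and 4.70 in esophagus.

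**Figure D3:**
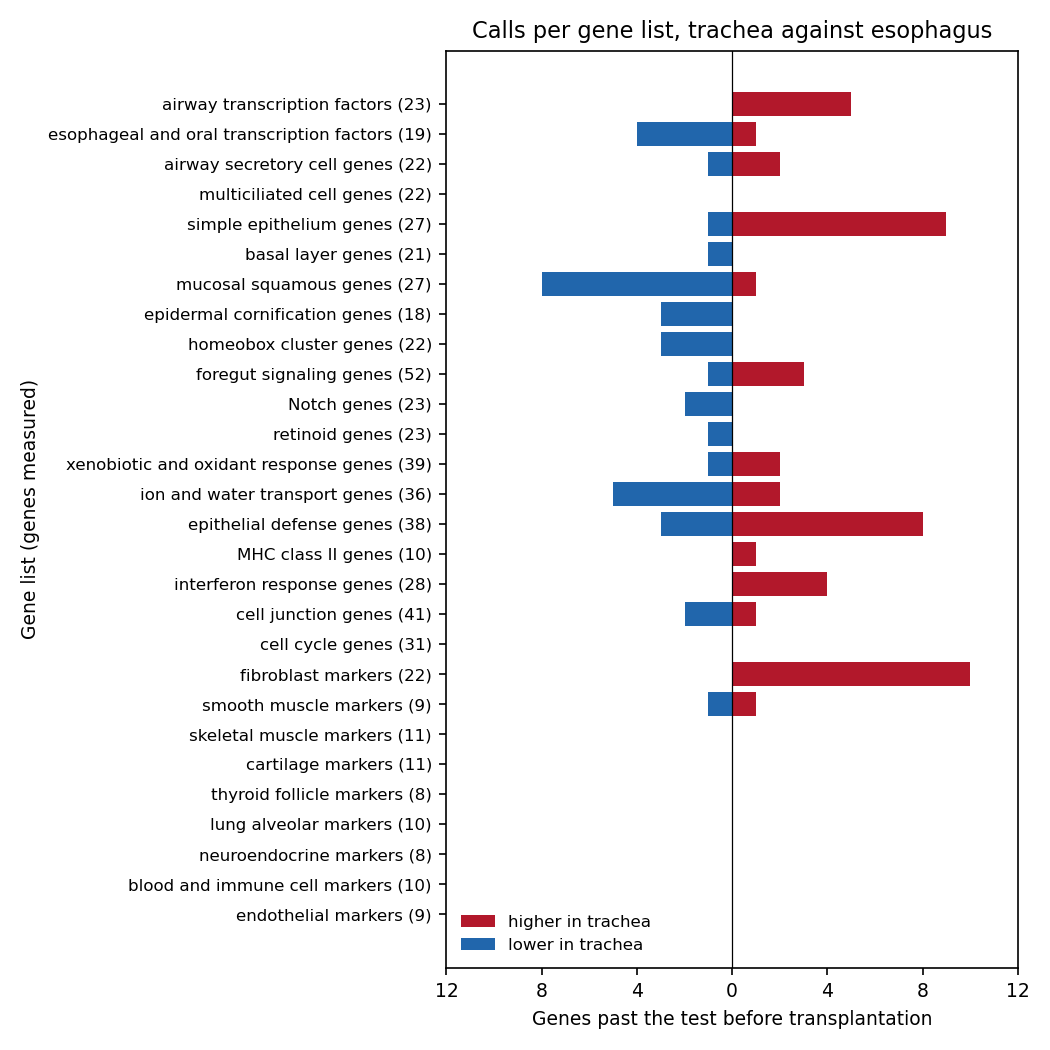
Number of genes past the test before transplantation in each gene list (horizontal, higher in trachea to the right in red, lower to the left in blue), with the number of genes measured in parentheses (vertical). Simple epithelium genes (9 higher, 1 lower), epithelial defense genes (8 and 3) and fibroblast markers (10 and 0) lie mostly to the right, and mucosal squamous genes (1 and 8) mostly to the left.

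The called transcription factors of 2 lists, 1 for the airway and 1 for the esophagus and mouth, differed by 2.01-fold to 7.67-fold. Of 23 airway transcription factors, 5 were higher in trachea and 0 lower. Irx3 read 8.0 and 7.89 in trachea and 6.13 and 6.20 in esophagus (3.44-fold), Tbx2 was 2.95-fold higher, Gata6 2.37-fold (not called against a fold of 1.5, adjusted p = 0.075) and Irx5 2.25-fold. Irx1 read 6.53 and 6.66 against 5.10 and 5.67, and its call was lost without esophagus replicate 1 (0.93, adjusted p = 0.0062). In vagina cells Tbx2 averaged 6.70 and Irx1 6.39, near the 6.83 and 6.59 of trachea. Irx5 averaged 7.51 in footpad cells, against 7.44 in trachea. In Irx3, Gata6 and Irx1, both trachea arrays lay above all 8 arrays of the other tissues before transplantation. Of 19 esophageal and oral transcription factors, 4 were lower in trachea and 1 was higher. Sim2 was 7.67-fold lower. Sox2 read 7.77 and 7.84 in trachea and 8.83 and 8.86 in esophagus (2.06-fold, not called in a test against a fold of 1.5, adjusted p = 0.060), and Pitx1, a factor of oral and hindlimb development, read 7.95 and 8.19 against 9.32 and 9.34. Grhl3, a factor of epidermal barrier formation, was 2.01-fold lower, at the edge of the threshold, and its call was lost without trachea replicate 2 (-0.97, adjusted p = 0.00081) or esophagus replicate 1 (-0.86, adjusted p = 0.00056). The 1 factor that was higher in trachea was Isl1, a LIM homeobox factor, with 6.40 and 6.39 against 5.12 and 5.26. Isl1 averaged 6.59 in oral mucosa, 6.21 in footpad and 5.19 in vagina cells. The median differences of these 2 lists were 0.07 and -0.21.

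Hox genes record the position of a cell along the body axis. Of 22 measured genes of the homeobox clusters, 3 were lower in trachea and 0 were higher, and all 3 belong to the Hoxc cluster. Hoxc4 was 6.0-fold lower. Hoxc5 read 3.44 and 3.62 in trachea and 5.20 and 5.17 in esophagus. Hoxc9 read 3.24 and 3.27 against 4.72 and 3.99, and its call was lost without trachea replicate 1 (-1.08, adjusted p = 0.064), trachea replicate 2 (-1.11, adjusted p = 0.053) or esophagus replicate 1 (-0.74, adjusted p = 0.11), and with the arrays of the 2 tissues alone (adjusted p = 0.068). Hoxc4 averaged 4.06 to 4.75 in oral mucosa, vagina and footpad cells, so that the esophagus cells stood alone at 6.65.

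Among 52 genes of foregut signaling, which covers the Wnt, BMP, Hedgehog, FGF and TGF-beta pathways, 3 were higher in trachea (5.77%) and 1 was lower (1.92%), with a median difference of 0.01, close to that of all genes. The ligands Tgfb2 and Tgfb3 were 3.50-fold and 2.87-fold higher, and Spry2, an inhibitor of FGF signaling, read 6.96 and 7.15 in trachea and 6.03 and 5.67 in esophagus. Id3, a target of BMP signaling, read 8.97 in both trachea arrays and 9.95 and 10.00 in esophagus (2.01-fold lower), and its difference fell to -0.98 without esophagus replicate 2 (adjusted p = 6.5e-05), which is under the fold threshold. Of 23 Notch genes, 2 were lower in trachea, the receptor Notch3 (2.49-fold) and Dtx4, a Deltex family gene of the pathway (2.77-fold). Of 23 retinoid genes, only the retinol dehydrogenase Rdh12 was called, at 3.85-fold lower.

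Of 38 genes of epithelial defense, 8 were higher in trachea (21.1%) and 3 were lower (7.89%), with a median difference of 0.11. The higher ones made up 72.7% of these calls, against 66.8% over all genes. The list averaged 5.84 in trachea, 5.98 in oral mucosa, 5.79 in vagina and 5.73 in footpad cells before transplantation. Esophagus was lowest, at 5.46, so the trachea level was shared with the other tissues. The neutrophil-attracting chemokines Cxcl2 and Cxcl6 were 5.20-fold and 4.53-fold higher, Cxcl2 reading 8.14 and 8.09 in trachea and 5.84 and 5.64 in esophagus. Tlr3, a receptor for double-stranded RNA, read 5.51 and 5.49 against 3.80 and 3.82. The genes that were lower were Slpi, the oxidase Duox1 (2.30-fold) and S100a8 (2.46-fold), the latter pair named after their values were seen. S100a8 had the weakest evidence of these, with an adjusted p of 0.023, and its call was lost without trachea replicate 1 (adjusted p = 0.094), trachea replicate 2 (0.13) or esophagus replicate 1 (0.16), and with the arrays before transplantation alone (0.070). Of 28 interferon response genes, 4 were higher in trachea and 0 were lower. This list averaged 5.39 in trachea, 5.37 in oral mucosa and 5.40 in vagina cells before transplantation, and 5.09 in esophagus and 5.03 in footpad cells. Usp18, a negative regulator of interferon signaling, read 5.95 and 6.34 in trachea and 4.49 and 3.74 in esophagus. Ifit2 was 3.57-fold higher, Bst2 2.47-fold and the transcription factor Irf1 2.11-fold, and the call of Irf1 was lost without trachea replicate 1 (0.95, adjusted p = 0.0025). Of 10 MHC class II genes, the invariant chain gene Cd74 alone was called, with 7.26 and 7.20 in trachea and 6.13 and 5.77 in esophagus.

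Of 36 genes of ion and water transport, 2 were higher in trachea and 5 were lower. Scnn1a, a subunit of the epithelial sodium channel, read 5.90 and 6.21 in trachea and 4.14 and 4.85 in esophagus. Cftr, the chloride channel gene and named after its value was seen, read 4.99 and 5.17 against 3.81 and 3.80. It was not called in limma's test against a fold of 1.5 (adjusted p = 0.19). The water and glycerol channel Aqp9 was 4.54-fold lower, the carbonic anhydrases Car2 and Car12 4.48-fold and 3.58-fold, the potassium channel Kcnj15 2.92-fold and the sodium pump regulator Fxyd4 2.64-fold. Of 39 xenobiotic and oxidant response genes, 2 were higher (5.13%) and 1 was lower (2.56%), with a median difference of -0.05. By limma's test, 21 of the 39 had an unadjusted p under 0.05, of which 5 were higher in trachea. The share of all genes at that p was not counted. Other lists also held many, such as 28 of 52 foregut signaling genes, 17 of them higher in trachea. The xenobiotic and oxidant response list averaged 6.92 and 6.87 in the trachea arrays and 7.08 and 7.04 in the esophagus arrays. The glutathione transferase Gstm1 read 9.78 and 9.36 in trachea and 11.91 and 11.94 in esophagus. The peroxidase Gpx3 was 2.20-fold higher, a call lost against a fold of 1.5 (adjusted p = 0.17), and the aldehyde dehydrogenase Aldh3a1 2.10-fold, and the call of Aldh3a1 was lost without trachea replicate 1 (0.92, adjusted p = 0.024) or esophagus replicate 1 (0.96, adjusted p = 0.018). Of 41 cell junction genes, Cldn7 was higher and Gjb2 and Dsc3 were lower. Of 31 cell cycle genes, 0 were called by limma in either direction before transplantation, with 7 at an unadjusted p under 0.05 and a median difference of -0.08.

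Markers of other cell types were read beside these results. Of 22 measured fibroblast markers, 10 were higher in trachea and 0 were lower, with a median difference of 0.75. The collagen genes Col3a1, Col1a1 and Col1a2 were 5.59-fold, 5.11-fold and 4.55-fold higher, and Col1a1 read 9.40 and 9.13 in trachea and 6.74 and 7.09 in esophagus. Vimentin (Vim), the intermediate filament of mesenchymal cells, read 10.09 and 10.08 against 7.06 and 7.41, Thy1 read 7.15 and 7.06 against 4.88 in both arrays, and periostin (Postn) read 5.37 and 5.02 against 3.16 and 3.25. The remaining called members were Dcn, Sparc, Loxl1 and Prrx1. The list averaged 7.26 and 7.15 in the trachea arrays and 6.07 and 6.21 in the esophagus arrays. Vagina cells averaged 7.17 and 7.10 and footpad cells 7.40 and 7.37, so the trachea level was shared with these tissues, and oral mucosa cells averaged 6.12 and 6.22, as low as esophagus. The sort on EGFP would keep rat fibroblasts. The part of fibroblast RNA in the genes higher in trachea, among them Mgp, Mxra8, Mmp3, Tgfb2 and Tgfb3, was not tested. Which cells made this RNA, how many they were and how much each made cannot be told apart in bulk samples.

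Of 9 smooth muscle markers, Tagln, an actin-binding protein also made by fibroblasts, read 7.48 and 7.70 in trachea and 4.85 and 5.12 in esophagus, and Myocd, a coactivator of smooth muscle genes, was 2.26-fold lower. By limma's test, 0 genes were called in the lists for skeletal muscle (11 genes), cartilage (11), thyroid follicle (8), lung alveolus (10), neuroendocrine cells (8), blood and immune cells (10) and endothelium (9), and at an unadjusted p under 0.05 each list held 0 to 3 genes. Of the 12 sex-linked genes listed, 2 had a probe set of their own, so the sex of the animals was not compared.

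**Figure D4:**
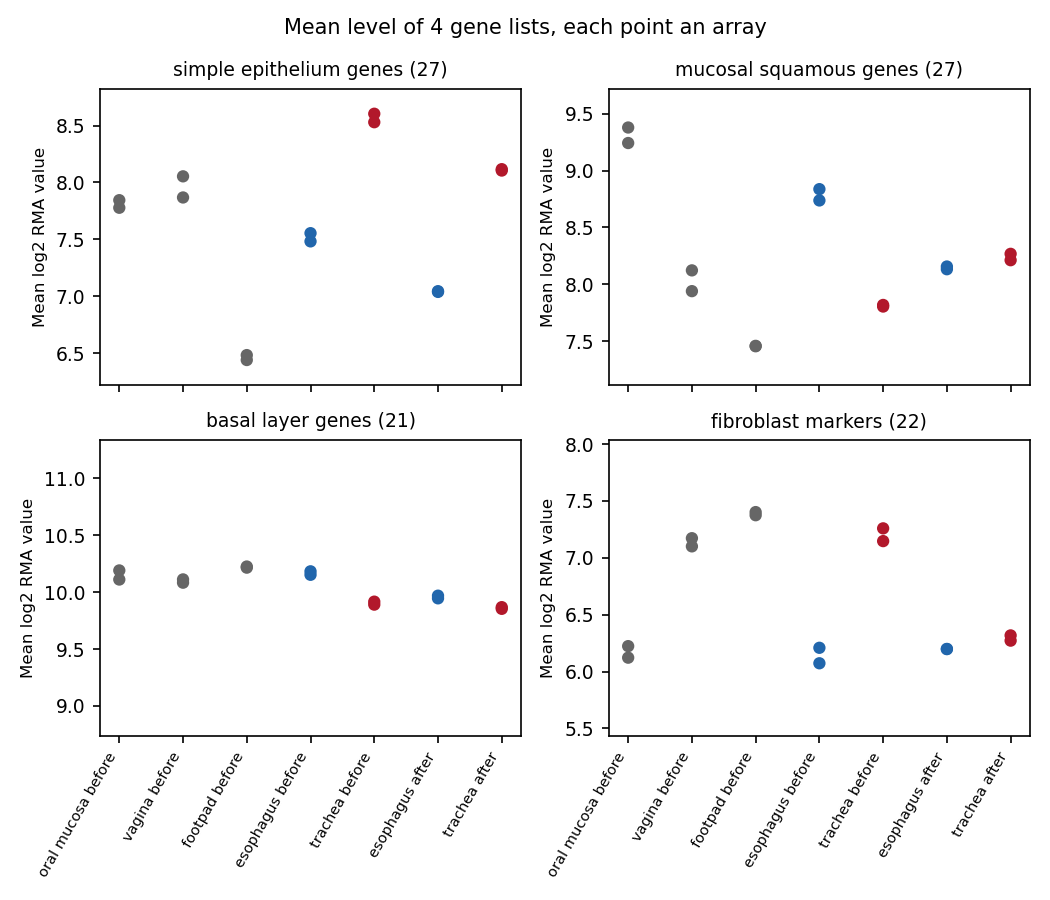
Mean log2 RMA value over the genes of 4 lists (vertical, number of genes in the panel title), each point an array and each panel spanning the same range, for 5 groups before transplantation and for esophagus and trachea after it (horizontal). Trachea before lay above esophagus before in simple epithelium genes (8.60 and 8.53 against 7.55 and 7.48) and fibroblast markers (7.26 and 7.15 against 6.07 and 6.21) and below it in mucosal squamous genes.

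The arrays of the 3 other tissues before transplantation show which of the tissues stood apart in the called genes. Both trachea arrays lay above all 8 arrays of the other 4 tissues in 4.83% of all genes and below them in 3.88%, and both esophagus arrays lay above all 8 in 2.92% and below them in 3.74%. Among the 274 genes higher in trachea, trachea was above all other tissues in 152, esophagus below all others in 97, and both held in 40. Among the 136 genes lower in trachea, trachea was below all other tissues in 90, esophagus above all others in 32, and both held in 12. Part of this follows from the selection, since a called gene already has trachea and esophagus separated.

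Cldn7 and Tspan1 were high in trachea alone, as the other tissues averaged 4.34 to 4.96 for Cldn7 and 4.13 to 4.79 for Tspan1. Fam83a was low in trachea alone, with 8.99 to 9.65 in oral mucosa, vagina and footpad cells. Sim2 was high in esophagus alone, with 3.86 to 4.45 elsewhere. Prom1, Plscr2 and Il18 were shared with vagina, where they averaged 10.12, 7.91 and 7.86. Il1rl1 and Mmp3 were low in esophagus alone, at 5.13 and 4.99. In oral mucosa, vagina and footpad cells they averaged 7.32 to 9.15 and 7.47 to 9.31, against 8.18 and 8.19 in trachea.

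The cells recovered from grafts give the same tissue comparison on arrays of their own, but they descend from the cells measured before and are not independent material. In them, 289 genes were higher in trachea (1.99%) and 241 were lower (1.66%). Of the 274 genes higher before, 103 were also called higher after, which is 37.6% of the former and 35.6% of the latter. Of the 136 genes lower before, 37 were called lower after, which is 27.2% of the former and 15.4% of the latter. Another 4 and 5 genes were called in the opposite direction after. The median difference of the genes higher before was 1.42 before and 0.71 after, and that of the genes lower before was -1.46 before and -0.49 after. Genes chosen for a large difference before tend to show a smaller one in any other arrays, so these medians are a description. Across the 14506 genes, the differences before and after had a Pearson's r of 0.36; genes are not independent replicates, the cells were the same, and all arrays went through the same processing.

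Several genes were called in the same direction in the recovered cells. Krt8 read 10.63 and 10.60 in trachea after and 6.92 and 7.22 in esophagus after, and Krt19 read 8.95 and 9.03 against 5.32 and 5.08. Il18 read 7.06 and 7.31 in trachea after and 3.22 and 3.07 in esophagus after. Cers4 read 4.46 and 4.83 in trachea and 9.33 and 9.19 in esophagus, and Fam83a 5.24 and 5.0 against 8.41 and 8.57. The size of the difference changed in Krt19 (interaction -1.13, adjusted p = 0.0061) and in Fam83a (1.15, adjusted p = 0.00056), whereas the interaction was not called in Krt8, Il18 and Cers4. Nkx2-1 read 6.56 and 6.77 in trachea after and 6.13 and 6.15 in esophagus after (adjusted p = 0.069), and was called at neither stage.

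The change of the tissue difference between the stages was tested as an interaction, the difference after minus the difference before. It was above 0 in 275 genes (1.90%) and below 0 in 329 (2.27%). Of the 274 genes higher in trachea before, 120 had a difference that was lower after, and 13 one that was higher. Of the 136 genes lower before, 70 had a difference that moved up and 3 one that moved further down. These genes were chosen on the same arrays before transplantation that enter the interaction, which favors movement toward 0, so the counts are a description. Since the titles of the recovered cells carry a different Roman numeral for each tissue, what the numerals stand for and the tissue cannot be told apart after transplantation.

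The largest interaction above 0 was that of Krt4, which was lower in trachea before and higher in trachea after. It read 9.0 and 9.16 in trachea after and 6.63 and 7.18 in esophagus after, so that the difference went from -2.52 to 2.18 (interaction 4.70, adjusted p = 1.6e-07). Lgals7 read 9.84 and 9.71 in trachea after and 9.79 and 9.85 in esophagus after, so that the arrays of the tissues overlapped after. Gstm1, like Krt4, turned, from -2.36 before to 1.74 after. Gsta4, another glutathione transferase, went from -0.98, which was not called, to 2.29. Crip1, a LIM-domain protein gene, read 10.88 and 10.75 in trachea after and 5.19 and 5.26 in esophagus after, and its difference grew from 1.82 to 5.59. Over the mucosal squamous list, the interaction was above 0 in 12 of 27 genes and below 0 in 0, and after transplantation 5 were higher and 3 lower in trachea.

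The largest interaction below 0 was that of Gnai1, an inhibitory G protein subunit, which read 5.22 and 5.38 in trachea and 3.42 and 4.25 in esophagus before, and 3.95 and 4.03 against 7.54 and 7.57 after. Snurf, an imprinted gene, read 9.11 and 8.94 in trachea and 8.66 and 8.30 in esophagus before, and 4.90 and 4.84 against 8.92 and 9.02 after. The differences of Mgp, Jam3 and Mxra8 were -0.13, -0.01 and 0.16 after, and none of them was called. Over the fibroblast markers, the interaction was below 0 in 8 of 22 genes, 2 were still higher in trachea after (Vim, 2.13-fold, and Sparc, 4.10-fold) and the median difference was 0.04. The list averaged 6.32 and 6.27 in trachea after, above the 6.20 of both esophagus arrays after. Of the 31 cell cycle genes, none of which was called before, 23 were lower in trachea after, with a median difference of -1.16, and its part in the interactions was not tested.

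**Figure D5:**
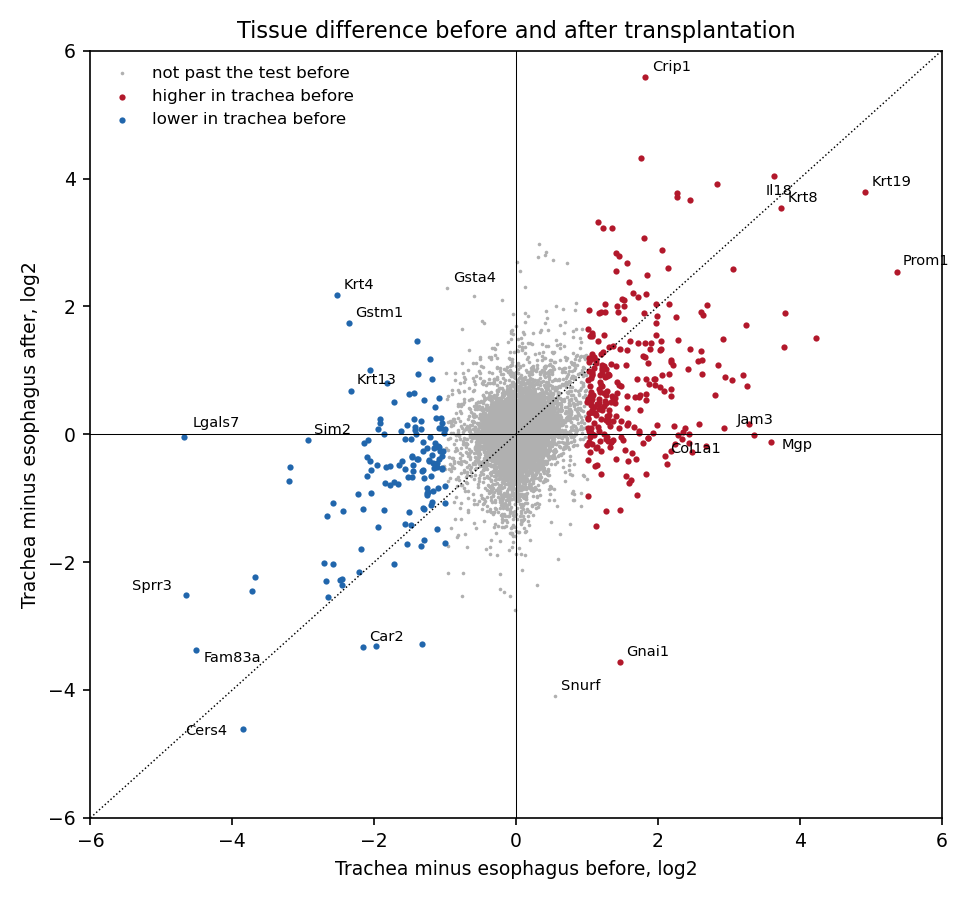
Trachea minus esophagus on the log2 scale before (horizontal) and after transplantation (vertical) for 14506 genes, with genes higher in trachea before in red, lower in blue and others in gray; the dotted line marks equal differences. Il18 and Krt8 lie near the dotted line, Mgp, Jam3, Lgals7 and Sim2 near a difference of 0 after, and Krt4 and Gstm1 in the upper left, where the direction turned.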

How the data were processed

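The deposited table gives, for each array and probe set, a log2 value that the authors made with RMA in Affymetrix Expression Console from 100 ng of RNA per array on Affymetrix Rat Gene ST arrays. RMA corrects background, applies quantile normalization across arrays and summarizes the probes of a set, so a shift common to most genes would be removed. The annotation's build and the tools' versions were not given in the sources used here. Of 29215 probe sets, 15310 had 1 symbol, 323 several and 13582 none in the platform annotation; gene IDs of 15279 were found in RefSeq (GRCr8). For a symbol with several probe sets (527 of 14506), the probe set whose mean over all 20 arrays was highest stood for it.

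All 10 groups of 2 arrays were fitted together with limma 3.58.1 (lmFit, eBayes) in R 4.3.3, with 10 residual and 3.64 prior degrees of freedom, with Benjamini-Hochberg adjustment over all 29215 probe sets. Contrasts were trachea minus esophagus before, the same after, and their difference. The thresholds are those of the study. The number of arrays limits the precision. The script was tested on simulated data. Genes named in the text are the 15 largest differences per direction, up to 6 called genes of each list, marker genes, and the 5 largest interactions per direction, with genes chosen later marked as such. The 15 per direction were taken among called genes whose arrays did not overlap between the tissues. Dcn, Sparc, Loxl1 and Prrx1 are named besides, as the remaining called fibroblast markers, and are not among the 102 genes followed under the alternatives. The comparison, the lists and the tests were chosen with earlier results of these data known. Alternatives were other sets of arrays, centering, a filter on low values, an intensity trend, averaged probe sets, adjustment over named genes alone, a test against a fold of 1.5, a replicate block, and leaving out each array.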

Additional observations from a re-analysis of the deposited data

Results flagged for a closer look

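For 62 of the genes named, the trachea minus esophagus difference after transplantation differed from that before by limma's interaction test, with an adjusted p under 0.05 and a change over 2-fold. The values in parentheses are the difference after minus the difference before on the log2 scale. Most of these genes were named for their difference before, and the same arrays enter the interaction, which favors movement toward 0. The titles of the stages also carry different Roman numerals, and what these stand for cannot be told apart from transplantation.

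Among genes higher in trachea before, the difference was lower after in Gnai1 (-5.02), Mgp (-3.72), Jam3 (-3.36), Mxra8 (-3.12), Prom1 (-2.82), Col3a1 (-2.76), Plscr2 (-2.72), Tspan1 (-2.51), Col1a2 (-2.45), Upk1b (-2.41), Lcn2 (-2.40), Col1a1 (-2.32), Mmp3 (-2.27), Cxcl2 (-2.27), Il1rl1 (-2.20), Thy1 (-2.10), Tlr3 (-2.07), Rassf9 (-1.89), Postn (-1.86), Isl1 (-1.82), Vim (-1.76), Cldn7 (-1.68), Upk3bl1 (-1.54), Krt18 (-1.44), Gpx3 (-1.34), Tagln (-1.29), Scnn1a (-1.16), Wfdc2 (-1.15), Krt19 (-1.13), Cxcl6 (-1.06). Among genes lower in trachea before, it was higher after in Dsc3 (1.03), Grhl3 (1.03), Sdr9c7 (1.11), Fam83a (1.15), Hoxc5 (1.18), Notch3 (1.19), Sox2 (1.22), Krt16 (1.25), Dmkn (1.27), Car12 (1.33), Ocm (1.38), Moxd1 (1.44), Hoxc4 (1.51), Tp73 (1.64), Kcnj15 (1.69), Elf5 (1.74), Rdh12 (2.03), Sprr3 (2.14), Cnfn (2.47), Slc2a5 (2.66), Sim2 (2.85), Fxyd4 (2.86), Krt13 (3.01), Ly6d (3.06), Gstm1 (4.10), Lgals7 (4.63), Krt4 (4.70). The remaining genes were Snurf (-4.64), Car2 (-1.16), Tgfb2 (1.27), Gsta4 (3.26), Crip1 (3.77). The direction of the call turned in Gnai1, Fxyd4, Ly6d, Gstm1 and Krt4.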

How the results depend on the processing

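The counts before transplantation moved by less than 1.5 times in every alternative. Genes higher in trachea ran from 209 with limma's test against a fold of 1.5 to 292, and genes lower from 117 to 155. Leaving out 1 array of the tissues at a time gave 257 to 292 genes higher and 120 to 155 lower before, 276 to 312 higher and 238 to 256 lower after, 564 to 622 genes with a different tissue difference after and before, and 536 to 577 of all probe sets called before. With the replicate block, 273 genes were higher and 136 lower before, and 604 genes had a different tissue difference, so the block moved no count by over 1.5 times. The deviations of same-numbered arrays of the tissues correlated with r = -0.10 before and -0.03 after, and the labels give no reason to pair them. The count that moved most was that of genes with a different tissue difference after and before, 604 as reported and 292 when tested against a fold of 1.5; that test asks for a larger difference by its construction. Of the 410 genes called before, 285 were called in every alternative. Centering the arrays shifted the median difference of all genes by 0.003. For 102 of the genes named, 1285 of 1315 values under the alternatives kept their direction and their side of the threshold. Of the others, 27 lost the call, 2 gained it (Gsta4) and 1 changed sign, that of Foxj1. The Foxj1 difference of -0.12 ran from -0.28 to 0.029 on leaving out 1 array, the latter without esophagus replicate 2. The cause was not tested. With 2 arrays per group, leaving 1 out assumes that the lone array varies like the other groups.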
